A study of Mus musculus with 35 samples.

Results

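How H3K27ac responded to Npm1c and Flt3-ITD together, compared with the sum of their separate effects, was measured in lineage-negative haematopoietic stem and progenitor cells (HSPC) of the mouse. H3K27ac is a histone acetylation mark of active promoters and enhancers, and it was profiled by chromatin immunoprecipitation and sequencing. The 8 libraries used here, of 35 samples in the series, were 2 each from DM, Npm1c, Flt3-ITD and WT mice of the C57BL/6 strain. The abbreviation DM is taken to mean mice with both mutations; no label says so in full. Marrow was flushed from femurs and tibias, red cells were lysed and lineage-positive cells were removed with a depletion kit. Each group had 2 biological replicates by the series design, but the zygosity, the Cre or other inducing allele, age and sex of the mice and any pooling of animals are unstated in the labels.

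Npm1c is a mutant nucleophosmin that is displaced from the nucleolus to the cytoplasm, and leukaemias that carry it typically express HOXA and HOXB genes with MEIS1. Flt3-ITD is an internal tandem duplication that keeps the FLT3 cytokine receptor signalling without its ligand, through STAT5 and the RAS-MAPK pathway. The pair is a common combination in human acute myeloid leukaemia and gives an aggressive myeloid leukaemia in mice.

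For each of 13308 protein-coding genes, the length under H3K27ac peaks was summed over the gene span plus 10 kb on each side. The interaction is DM minus Npm1c minus Flt3-ITD plus WT on the scale of log2(covered bp + 500), after each library was centred. A value of 0 means that the DM difference from WT equals the sum of the Npm1c and Flt3-ITD differences from WT. A value below 0 means that DM had less acetylated length than that sum, and a value above 0 that it had more. Called genes passed limma with Benjamini-Hochberg adjustment over all 13308 genes at 0.05, and a gene is said to rise or fall relative to WT only where that difference passed the same test.

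The promoters printed here belong to the first named gene of each non-additive class, by size, that has an entry in the RefSeq promoter table (GRCm38.p6), and are shown with the peak length over them in each genotype. Each is 300 bases on its own strand, 5′ to 3′. Capitals mark matches, on either strand, to GATAA (the GATA factor core), TGANTCA (AP-1), TTCNNNGAA (STAT), TGTGGT (RUNX), GAGGAAGT (PU.1) or TGATTNAT (HOX-PBX), and a match in capitals that is not spelled as listed is its reverse complement.
Mycl: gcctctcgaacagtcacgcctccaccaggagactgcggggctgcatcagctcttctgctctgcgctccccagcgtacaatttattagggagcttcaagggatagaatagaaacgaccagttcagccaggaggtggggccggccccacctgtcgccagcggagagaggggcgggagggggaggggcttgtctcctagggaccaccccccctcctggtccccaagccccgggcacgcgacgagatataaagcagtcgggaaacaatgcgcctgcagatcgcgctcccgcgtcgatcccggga
Dach1: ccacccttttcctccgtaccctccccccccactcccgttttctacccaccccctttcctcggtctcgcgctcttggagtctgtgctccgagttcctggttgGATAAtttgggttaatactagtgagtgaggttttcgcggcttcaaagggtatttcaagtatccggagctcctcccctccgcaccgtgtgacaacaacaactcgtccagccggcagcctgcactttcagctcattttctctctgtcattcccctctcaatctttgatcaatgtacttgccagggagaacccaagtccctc
Cttnbp2nl: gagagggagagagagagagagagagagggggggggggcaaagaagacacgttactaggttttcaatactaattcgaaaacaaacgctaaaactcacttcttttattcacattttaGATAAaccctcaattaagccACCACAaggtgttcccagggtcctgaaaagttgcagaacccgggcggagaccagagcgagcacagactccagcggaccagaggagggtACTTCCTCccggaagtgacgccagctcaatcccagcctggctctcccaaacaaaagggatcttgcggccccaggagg
Meis1: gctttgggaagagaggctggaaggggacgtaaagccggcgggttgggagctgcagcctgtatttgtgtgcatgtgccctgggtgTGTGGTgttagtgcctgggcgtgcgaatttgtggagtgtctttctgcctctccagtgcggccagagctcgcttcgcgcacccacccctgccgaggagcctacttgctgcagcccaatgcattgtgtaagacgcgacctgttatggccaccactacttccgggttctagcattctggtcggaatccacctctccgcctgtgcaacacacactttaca
The Mycl promoter (chr4:122995681-122995980, plus strand) held none of these motifs. The Dach1 promoter (chr14:98169716-98170015, minus strand) held GATAA, found in 25.4% of 32851 mouse promoters of this length. The Cttnbp2nl promoter (chr3:105053097-105053396, minus strand, the first of 2 in the table) held the GATA core, the RUNX core (16.8% of promoters) and the PU.1 motif (3.20%). The Meis1 promoter (chr11:19018920-19019219, minus strand) held the same RUNX core. The AP-1, STAT and HOX-PBX motifs, found in 7.81%, 8.30% and 3.22% of promoters, were in none of the 4. These 300 bases were covered in full by peaks at Dach1 in both Npm1c, both Flt3-ITD and both WT libraries, and by 0 bp in both DM libraries. At Meis1 peaks covered 75 and 55 bp in DM, 300 and 300 bp in Npm1c, 139 and 84 bp in Flt3-ITD, and 46 and 58 bp in WT. At Mycl they covered 125 and 24 bp in DM, 0 bp in both Npm1c libraries, 0 and 40 bp in Flt3-ITD, and 0 bp in both WT libraries. At Cttnbp2nl 240 bp were covered in DM replicate 1 and 0 bp in the other 7 libraries; the rest of its acetylated length lay elsewhere in its window.

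The lists differed in size before any gene was compared. Peaks covered 20.3 and 13.5 Mb in DM, 23.4 and 23.9 Mb in Npm1c, 16.6 and 18.3 Mb in Flt3-ITD, and 15.2 and 15.3 Mb in WT, in 21704 to 30143 peaks per library. Npm1c lists were the largest, and DM replicate 1 lay above and DM replicate 2 below every WT and Flt3-ITD library. The interaction of log2 covered Mb was -0.71 (two-sided exact permutation test over 2520 assignments of the libraries, p = 0.143, adjusted p = 0.257 over 3 measures; the smallest p the design allows is 0.0286). Read depth is unknown, so list size and depth cannot be told apart. Without centring the median gene had an interaction of -0.47, which centring moved to 0.04, so interactions and differences from WT are relative to that shift. Lengths in kb are uncentred, and since the Npm1c lists are the largest, Npm1c can exceed WT in kb where its centred difference is near or below 0. Mature neutrophil genes, expressed by cells that lineage depletion removes, were at 0 kb in all 8 libraries for 12 of 24 members, Ly6g, Ltf, Camp, S100a8 and S100a9 among them, and liver, neuron and other tissue genes for 15 of 18. Of all 21887 protein-coding genes, 13860 had a peak in at least 1 of the 8 libraries and the rest had none. Counts of list members at 0 kb in all 8 libraries stand beside that share. In these bulk libraries, fewer cells of a type and less of the mark per cell cannot be told apart.

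The interaction passed the test at 112 genes, 0.842% of those tested, of which 18 (0.135%) were above 0 and 94 (0.706%) below it. At an unadjusted p under 0.05 the split was nearer to even, with 1217 above 0 and 1373 below among 2590 genes (19.5%). The sign was the same in all 16 combinations of 1 library per genotype at each of the 112 genes. Those genes were selected on the same libraries, so this is not separate support for the calls. When a library was left out, the median ratio to the full value over the 112 genes was between 0.956 and 1.05. Leaving out either library of a group moves a gene by about equal and opposite amounts. Such a median does not show how far single genes move. Mllt3 lay between -3.21 and -2.33 and Cited4 between -2.50 and -1.76, while Car2 lay between -3.66 and -3.34. The number of calls moved as well. Limma called 0 genes without Flt3-ITD replicate 2, without WT replicate 1 or without WT replicate 2, with 1816, 1441 and 1480 genes at an unadjusted p under 0.05 against 2590 with all libraries. It called 12 and 4 genes without DM replicates 1 and 2, 21 and 610 without Npm1c replicates 1 and 2, and 70 without Flt3-ITD replicate 1. Car2, Dach1 and Cela1 kept the call in 5 of 8 such fits, more than any other gene, and 67 genes kept it in 1.

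Taking the differences from WT side by side, which share the WT libraries, DM differed at 2451 genes (18.4%; 9.25% higher and 9.17% lower), Npm1c at 20 (0.15%, all higher) and Flt3-ITD at 47 (0.353%; 0.278% higher and 0.0751% lower). Of the 112 genes, 50 were more than additive, 29 reversed and 33 less than additive. More than additive means that DM and the interaction went the same way with a DM difference of at least 0.5, reversed that DM and the summed single effects had opposite signs and were both at least 0.5 in size, and less than additive covers the other called genes. A further 179 genes were additive, with a response to any genotype (F test adjusted p under 0.05 and a difference of 1 or more, 1020 genes or 7.66%) and a 95% confidence interval of the interaction within -1 to 1. The remaining 766 responding genes could be put in no class. Genes just inside the threshold were Arl11 (adjusted p = 0.0492), Gm30990 (0.0494) and Tmem270 (0.0499), and just outside it Svbp (0.0513), Herpud1 (0.0519) and Chuk (0.0521).

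**Figure D1:**
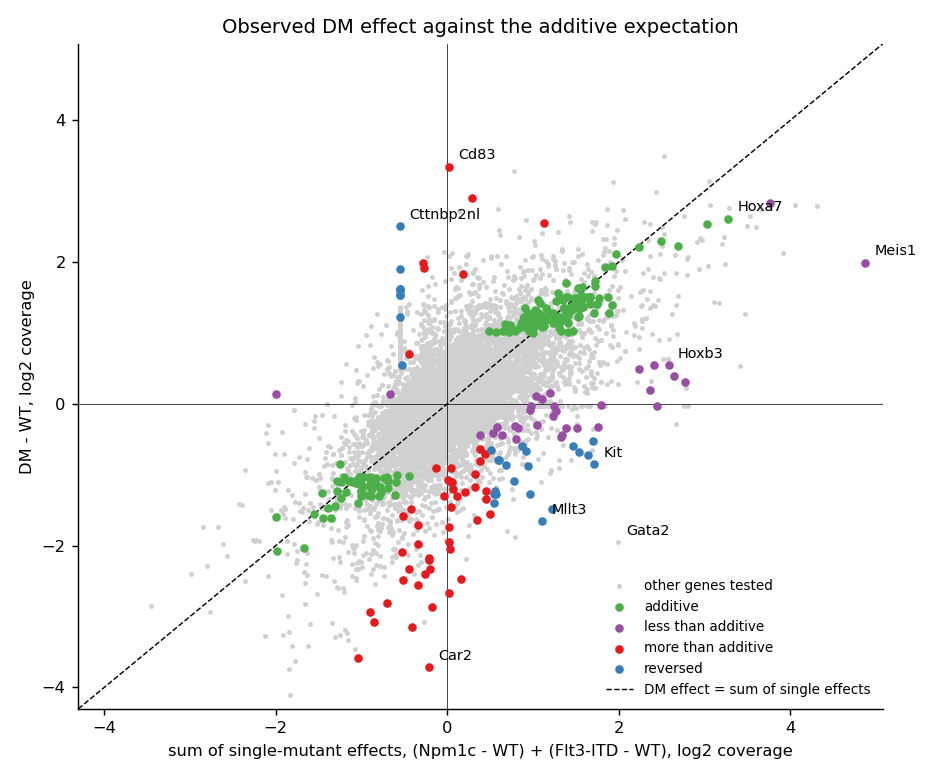
Each point is a gene, with the sum of the Npm1c and Flt3-ITD differences from WT on the x axis and the DM difference from WT on the y axis, both in log2 coverage units; the dashed line marks equality. The 179 additive genes lie along the line in both directions, Car2 and Cd83 lie far off it near an expected value of 0, and Kit and Mllt3 lie right of 0 and below it; the vertical row of blue points holds genes with 0 kb outside DM, set at their x value by the centring.

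Gains in DM that exceeded the sum of the single effects were found at 7 genes: Cd83, Socs2, Mycl, Tox, H2-Ab1, Klri2 and Nsmce2. When covered length was scaled before the 500 bp were added, an alternative chosen after seeing the data in which zeros stay at zero, Cd83 alone of the 7 kept its call (3.00; limma, adjusted p = 0.026), and the other 6 had adjusted p-values of 0.0513 (Nsmce2) to 0.0655 (Klri2). Centring sets a gene with 0 kb in Npm1c and WT at -0.41 in Npm1c, and one with 0 kb in Flt3-ITD and WT at -0.14 in Flt3-ITD, which raises the interactions of Socs2, Mycl, Tox and Klri2. For Mycl and Tox the additive expectation lay below zero coverage, so no DM value could give an interaction below 0. Outside DM only Flt3-ITD replicate 2 had a peak at Mycl, and only Npm1c replicate 2 at Tox. Both genes thus passed the filter of at least 2 covered libraries only through DM. Their adjusted p-values are not separate support. Cd83 (chr13:43785112-43803133), a surface protein of activated antigen-presenting cells, carried 5.61 and 3.94 kb of peaks in DM, 0 and 0.204 kb in Npm1c, 0 and 0.288 kb in Flt3-ITD, and 0 kb in both WT libraries. Both DM libraries stood far above all 6 others, which were at or near 0; the region chr13:43777131-43778663 before the gene start (1.53 and 1.05 kb in DM) and the region chr13:43789217-43790795 inside it (1.58 and 1.41 kb in DM) were covered in DM only. The interaction was 3.32 ± 0.326 (SE; limma, adjusted p = 0.0239), the largest value above 0 among the called genes.

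Socs2 (chr10:95383903-95417321), a feedback inhibitor of STAT5 signalling, had 4.56 and 2.402 kb in DM, 0 kb in both Npm1c libraries, 0.200 and 0.633 kb in Flt3-ITD, and 0 kb in both WT libraries. The DM peaks spread over 10 merged regions, of which 2 held the Flt3-ITD peaks. The interaction was 2.62 ± 0.346 (limma, adjusted p = 0.0261). Mycl, a MYC family transcription factor, had 1.69 and 1.38 kb in DM, 0 kb in both Npm1c libraries, 0 and 0.222 kb in Flt3-ITD, and 0 kb in both WT libraries, with an interaction of 2.27 (adjusted p = 0.0239). Tox, an HMG-box factor of lymphoid development, had 1.51 and 1.38 kb in DM against at most 0.240 kb in the other 6 libraries (2.19; adjusted p = 0.0363). Klri2, a killer cell lectin-like receptor gene, had 1.49 and 1.15 kb in DM, 0 kb in both Npm1c libraries, 0.367 and 0.294 kb in Flt3-ITD, and 0 kb in both WT libraries (1.64; adjusted p = 0.0454). At each of these genes the DM libraries did not overlap the others.

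The class II gene H2-Ab1 (chr17:34263227-34269418), the beta chain of an antigen-presenting heterodimer, had 5.64 and 3.84 kb in DM, 1.03 and 1.03 kb in Npm1c, 0.816 and 1.32 kb in Flt3-ITD, and 0.398 and 0.322 kb in WT. Every library carried the peak region at chr17:34264345-34265457, while 5 of the 7 regions of the window were covered in DM only. The interaction was 1.42 ± 0.208 (limma, adjusted p = 0.0363). Its neighbour H2-Aa, the alpha chain, had 6.79 and 2.93 kb in DM, 0 and 0.299 kb in Npm1c, 0.808 and 0.253 kb in Flt3-ITD, and 0 kb in both WT libraries, and its interaction of 2.51 missed the threshold (adjusted p = 0.0784). Cd74, the invariant chain, had 5.46 and 4.37 kb in DM against 0.236 to 1.54 kb in the other 6 libraries (2.58; adjusted p = 0.0886). Of 16 tested dendritic cell and class II genes, 9 rose and 1 fell in DM relative to WT, against 9.25% and 9.17% of all genes, and H2-Ab1 alone had a called interaction (0.135% of all genes above 0); Ciita, the class II transactivator, was at 0 kb in all 8 libraries. The list summed to 79.1 and 41.2 kb in DM, 41.019 and 41.8 kb in Npm1c, 36.5 and 37.4 kb in Flt3-ITD, and 21.997 and 20.7 kb in WT, and DM replicate 2 lay between the Npm1c libraries. Monocyte and macrophage genes had a median interaction of 0.45, with 0 of 14 called by limma and 4 at an unadjusted p under 0.05, and summed to 40.7 and 19.2 kb in DM, 13.6 and 23.4 kb in Npm1c, 20.6 and 17.984 kb in Flt3-ITD, and 9.80 and 8.84 kb in WT. Of 21 monocyte genes, 5 were at 0 kb in all 8 libraries (Ly6c2, Adgre1 and Ms4a7 among them). The part of such cells in the values of H2-Ab1 and Cd83 was not tested.

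Losses in DM that exceeded the sum of the single effects made up 43 of the 112 genes, several of them red cell genes. Car2 (chr3:14886269-14900770), carbonic anhydrase of red cells, had 0.272 and 0.257 kb in DM, 14.5 and 12.1 kb in Npm1c, 7.30 and 9.45 kb in Flt3-ITD, and 9.81 and 8.85 kb in WT. In kb Npm1c lay above WT, with a centred difference of 0.08, Flt3-ITD overlapped WT, and DM kept a short peak inside 1 of 5 acetylated regions. The interaction was -3.50 ± 0.223 (limma, adjusted p = 0.00947), and it lay between -3.66 and -3.34 when any library was left out. The window of Car3, its neighbour, overlaps that of Car2 and shares part of its peaks, so the called interaction of Car3 (-2.73) is not a separate result.

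The Rh-associated glycoprotein gene Rhag had 0 kb in both DM libraries, 4.62 and 3.31 kb in Npm1c, 2.32 and 2.13 kb in Flt3-ITD, and 2.32 and 2.12 kb in WT (-2.63; adjusted p = 0.0239). Aqp1, the water channel of red cells, had 0 kb in both DM libraries, 6.73 and 4.69 kb in Npm1c, 2.97 and 3.98 kb in Flt3-ITD, and 5.15 and 5.53 kb in WT (-2.53; adjusted p = 0.0239). DM was empty at both genes; Flt3-ITD overlapped WT at Rhag and lay below it without overlap at Aqp1 (a difference of -0.71; adjusted p = 0.17). Against an empty group the log2 values depend on the 500 bp added, and they are not fold changes.

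Over the erythroid list, 24 of 28 tested genes fell in DM relative to WT, against 9.17% of all genes that fell, and 5 had a called interaction below 0 (Car2, Car1, Rhag, Aqp1 and Nfe2). The median interaction was -0.95 over the list and 0.04 over all genes, and 25 of 28 values were below 0. Summed coverage was 24.997 and 16.4 kb in DM, 147 and 104 kb in Npm1c, 54.2 and 75.7 kb in Flt3-ITD, and 90.4 and 90.5 kb in WT. Both DM libraries lay far below all others, both Flt3-ITD libraries below WT and, in kb, both Npm1c libraries above it. These sums are uncentred; on the centred scale the list's median difference from WT was -1.55 in DM, -0.11 in Npm1c and -0.61 in Flt3-ITD. Sums count peaks shared by neighbouring windows more than once. The erythroid master regulator Gata1 had 0 kb in both DM libraries, 3.45 and 1.68 kb in Npm1c, 0.403 and 0.479 kb in Flt3-ITD, and 1.61 and 1.40 kb in WT, with an interaction of -0.95 that did not pass (adjusted p = 0.258). Klf1, the other main erythroid activator, had 1.59 and 1.46 kb in DM, 4.92 and 4.71 kb in Npm1c, 2.74 and 4.16 kb in Flt3-ITD, and 3.41 and 3.70 kb in WT (-0.82; adjusted p = 0.109). Gfi1b, a repressor required for red cells and platelets, had 0 kb in both DM libraries, 10.9 and 6.41 kb in Npm1c, 1.75 and 4.17 kb in Flt3-ITD, and 7.59 and 8.19 kb in WT (-2.26; adjusted p = 0.0786). These 3 were chosen after their values were seen, and both DM libraries lay below all others at each.

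**Figure D2:**
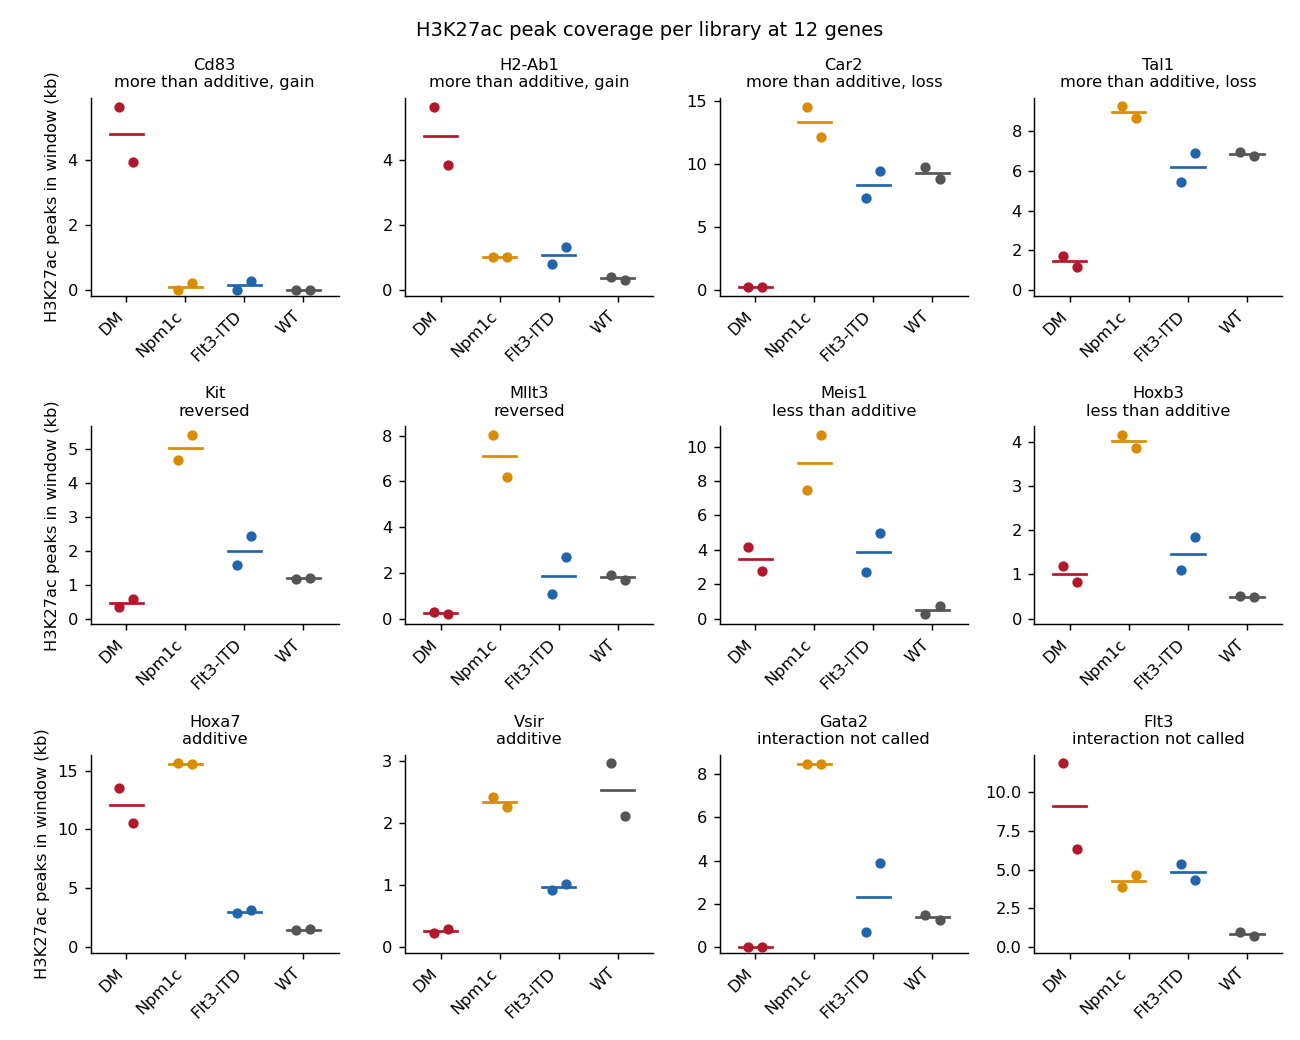
Kilobases of H3K27ac peak in the gene window (y axis, linear from 0) at 12 genes, for DM, Npm1c, Flt3-ITD and WT from left to right; points are libraries and bars are means of 2. DM is near 0 at Car2, Kit and Mllt3 where Npm1c reaches 4.68 to 14.5 kb, and is the only acetylated genotype at Cd83 beyond 0.288 kb.

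The transcription factor genes Tal1 and Lmo2 also fell in DM beyond the sum of the single effects. Tal1 (chr4:115056426-115071755), a basic helix-loop-helix factor needed for blood formation, had 1.73 and 1.15 kb in DM, 9.26 and 8.64 kb in Npm1c, 5.45 and 6.89 kb in Flt3-ITD, and 6.96 and 6.75 kb in WT. Both DM libraries lay far below the others, with most of their length in the region chr4:115055839-115061068, and Flt3-ITD overlapped WT. The interaction was -1.63 ± 0.157 (limma, adjusted p = 0.0239). Lmo2, a bridging partner of TAL1, had 2.69 and 2.31 kb in DM, 12.2 and 10.1 kb in Npm1c, 5.93 and 7.31 kb in Flt3-ITD, and 6.89 and 6.54 kb in WT (-1.41; adjusted p = 0.0283). At Lmo2 the region chr2:103968163-103972708 was covered in all 8 libraries, and chr2:103956014-103961390 in all but DM, with 5.26 and 4.15 kb in Npm1c, 2.53 and 3.14 kb in Flt3-ITD, and 3.72 and 3.57 kb in WT.

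Dach1, a developmental transcription cofactor, had 0 kb in both DM libraries, 4.37 and 3.78 kb in Npm1c, 2.91 and 3.32 kb in Flt3-ITD, and 2.97 and 3.18 kb in WT, all inside a single region over the promoter printed above (-2.69 ± 0.199; limma, adjusted p = 0.012). Trib2, a pseudokinase, had 0 kb in both DM libraries, 4.75 and 4.33 kb in Npm1c, 1.49 and 1.92 kb in Flt3-ITD, and 3.28 and 3.22 kb in WT (-2.04; adjusted p = 0.0239). Angpt1, the TIE2 ligand, had 0.701 and 0.567 kb in DM, 5.82 and 6.23 kb in Npm1c, 2.50 and 2.65 kb in Flt3-ITD, and 4.06 and 2.46 kb in WT (-1.75; adjusted p = 0.0413). Myo1d, a myosin, and Nxpe2 also belonged here, with at most 0.204 kb in DM against 2.12 to 6.80 kb and 1.56 to 5.45 kb in the other 6 libraries (-2.69 and -2.22; limma, adjusted p = 0.0239 each). Across the 43 genes the median difference from WT was -1.71 in DM, 0.17 in Npm1c and -0.29 in Flt3-ITD, and no single-mutant difference exceeded 0.924 in size. DM was at 0 kb in both libraries for 15 of them, against 141 of the 766 responding genes in no class and 545 of the 12251 genes that did not respond.

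At 20 reversed genes DM lay below WT while the summed single effects were above it, and at 9 the opposite held. No Npm1c or Flt3-ITD difference from WT passed limma at any of these genes. The DM difference passed at 18 of the 20 and at all 9 of the others. Kit (chr5:75574987-75656722), the stem cell factor receptor and a defining gene of these cells, had 0.353 and 0.578 kb in DM, 4.68 and 5.42 kb in Npm1c, 1.57 and 2.43 kb in Flt3-ITD, and 1.16 and 1.21 kb in WT. The order was the same in every library, with Npm1c highest, then Flt3-ITD, then WT, and DM lowest, and the groups did not overlap. Most of the acetylated length was in a region over the gene start, chr5:75574933-75579281, which reached 3.48 and 4.201 kb in Npm1c. Kit fell in DM by 0.85 relative to WT (limma, adjusted p = 0.0373), its differences in Npm1c (1.31; adjusted p = 0.0938) and Flt3-ITD (0.41; adjusted p = 0.444) did not pass, and the interaction was -2.56 ± 0.310 (adjusted p = 0.0239).

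Mllt3, a reader of acetylated histones that sustains stem cells, had 0.297 and 0.205 kb in DM, 8.01 and 6.18 kb in Npm1c, 1.07 and 2.67 kb in Flt3-ITD, and 1.93 and 1.70 kb in WT (-2.77 ± 0.391; limma, adjusted p = 0.0345). Its region chr4:87804532-87807987 held 0 kb in both DM libraries, 3.37 and 2.45 kb in Npm1c, 0.744 and 0.684 kb in Flt3-ITD, and 1.02 and 0.773 kb in WT. Rfx2, a winged-helix transcription factor, had 1.43 and 0.648 kb in DM, 10.9 and 8.07 kb in Npm1c, 4.07 and 6.55 kb in Flt3-ITD, and 3.44 and 3.66 kb in WT (-2.70; adjusted p = 0.0239). Ltbp1, which binds latent TGF-beta, had 0 kb in both DM libraries, 2.17 and 1.98 kb in Npm1c, 0.647 and 0.669 kb in Flt3-ITD, and 0.392 and 0.229 kb in WT (-2.37; adjusted p = 0.0239). At each of these 3 genes both DM libraries lay below all others and both Npm1c libraries above all others. Myb, a progenitor transcription factor, belonged to the 20 genes reversed in this direction with an interaction of -1.16 (adjusted p = 0.0239), and so did Adgrg1, Kdm5b and Ctnnb1 (-1.82, -2.24 and -1.40; adjusted p = 0.0449, 0.0239 and 0.0239).

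The 9 genes reversed in the other direction depend on the centring. All but Gpd2 had 0 kb in every Npm1c, Flt3-ITD and WT library, and the centring of such zeros adds 0.51 to the interaction of any such gene. These 8 genes carried peaks in DM alone and passed the filter of at least 2 covered libraries only through DM. An interaction above 0 was therefore fixed in advance for them, and their adjusted p-values are not separate support. Cttnbp2nl, a cortactin-binding-protein relative, had 3.07 and 1.87 kb in DM and 0 kb in the other 6 libraries, in 7 regions of which 5 were present in both DM libraries (3.06 ± 0.266; limma, adjusted p = 0.0216). Ctnnd2, delta-catenin, had 2.15 and 0.893 kb in DM and 0 kb in the other 6 (2.46; adjusted p = 0.0345). Thy1, a surface marker of T cells and some progenitors, had 0.834 and 0.581 kb in DM and 0 kb in the other 6 (1.78; adjusted p = 0.047), while the T cell genes Cd3e and Cd8a were at 0 kb in all 8 libraries. The remaining 5 were Ank2, Bmp6, Ccr6, Dagla and Scg5. With scaling before the 500 bp were added, 4 of the 9 kept their call, all as more than additive gains: Cttnbp2nl (2.66; limma, adjusted p = 0.0193), Scg5 (adjusted p = 0.0374), Dagla (0.0402) and Ccr6 (0.049). Bmp6 (0.0515), Ctnnd2 (0.0527), Gpd2 (0.0538), Thy1 (0.0637) and Ank2 (0.0658) lost it, and no gene was reversed upward.

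The less than additive genes included HOX genes and their cofactors. Meis1 (chr11:18880428-19019651), the HOX cofactor, had 4.19 and 2.78 kb in DM, 7.48 and 10.7 kb in Npm1c, 2.72 and 5.00 kb in Flt3-ITD, and 0.263 and 0.709 kb in WT. All mutant libraries lay above WT, DM overlapped Flt3-ITD, and Npm1c was highest. Meis1 rose in DM (1.99; adjusted p = 0.00515), in Npm1c (2.89; adjusted p = 0.0155) and in Flt3-ITD (1.99; adjusted p = 0.0494), all by limma, and the interaction of -2.88 ± 0.397 (adjusted p = 0.0305) means that the DM difference was smaller than the sum of the single effects. The promoter-proximal regions chr11:19013558-19017721 and chr11:19017734-19020410 held most of the length in every mutant library. The region chr11:18877732-18878528, beyond the 3′ end, held 0 kb in both DM libraries, 0.618 and 0.797 kb in Npm1c, 0.260 and 0.242 kb in Flt3-ITD, and 0 kb in both WT libraries.

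Hoxb3 had 1.19 and 0.825 kb in DM, 4.16 and 3.85 kb in Npm1c, 1.09 and 1.85 kb in Flt3-ITD, and 0.501 and 0.490 kb in WT (-2.03 ± 0.220; limma, adjusted p = 0.0239). Its region chr11:96310484-96312254 held 0 kb in both DM libraries, 1.77 and 1.52 kb in Npm1c, 0 and 0.539 kb in Flt3-ITD, and 0 kb in both WT libraries. S1pr1, a sphingosine phosphate receptor, had 0 kb in both DM and both WT libraries, 1.60 and 1.24 kb in Npm1c, and 0.409 and 0.690 kb in Flt3-ITD (-2.48; adjusted p = 0.0239). Both single mutants thus carried peaks there and DM, like WT, carried none, although neither single-mutant difference passed (adjusted p = 0.0773 in Npm1c and 0.128 in Flt3-ITD).

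Atf7ip, a partner of the histone methyltransferase SETDB1, had 1.58 and 0.905 kb in DM, 6.33 and 4.13 kb in Npm1c, 2.68 and 2.76 kb in Flt3-ITD, and 0.820 and 0.868 kb in WT (-2.46; adjusted p = 0.0239). Lrrc36 and Fry were also highest in Npm1c, with 0.395 to 0.515 kb and 0.490 to 1.16 kb in DM against 2.37 to 3.00 kb and 4.54 to 5.64 kb in Npm1c (-2.18 and -2.08; limma, adjusted p = 0.0444 and 0.0239). Arl11 ran the other way and was 1 of 2 less than additive genes above 0, with 1.38 and 0.698 kb in DM, 0 and 0.264 kb in Npm1c, 0.658 and 0.442 kb in Flt3-ITD, and 0.898 and 0.757 kb in WT (2.14; adjusted p = 0.0492). Single mutants were at or below WT there, and DM spanned it. The additive expectation for Arl11 lay below zero coverage, so any DM value, 0 kb included, would give an interaction above 0.

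Part of the Hoxa cluster met the definition of additive, whose bounds of -1 to 1 allow an interaction away from 0. Hoxa7 (chr6:52215623-52218573) had 13.6 and 10.5 kb in DM, 15.6 and 15.5 kb in Npm1c, 2.87 and 3.12 kb in Flt3-ITD, and 1.47 and 1.504 kb in WT. DM and Npm1c lay far above Flt3-ITD and WT, with DM below Npm1c. Its interaction was -0.67 ± 0.125 (limma, adjusted p = 0.0625), with the confidence interval inside -1 to 1. Hoxa3, Hoxa5 and Hoxa6, which were additive too, share at least 50% of the covered length of the smaller window with it. Hoxa11 had 2.32 and 1.51 kb in DM, 2.91 and 2.97 kb in Npm1c, and 0 kb in both Flt3-ITD and both WT libraries (-0.02; adjusted p = 0.969). Hoxa9, added after its value was seen, had 16.9 and 12.6 kb in DM, 19.9 and 20.2 kb in Npm1c, 3.65 and 3.73 kb in Flt3-ITD, and 1.47 and 1.68 kb in WT, and its interaction passed (-0.94; limma, adjusted p = 0.0449). Hoxa10, also added, had an interaction of -0.98 (adjusted p = 0.0535). At Hoxa7, Hoxa9 and Hoxa10 alike, DM lay below the sum of the single effects, so the class of Hoxa7 does not set it apart. Of 20 HOX and cofactor genes tested, 10 rose in DM, against 9.25% of all genes, 10 in Npm1c, against 0.15%, and 4 in Flt3-ITD, against 0.278%. Of the 20, 5 had a called interaction below 0, against 0.706% of all genes, Meis1, Hoxb3, Hoxb4 and Hoxa9 among them, with a list median of -0.80. Neighbouring Hox windows share peaks, so these counts do not rest on 20 separate genes.

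Among the other additive genes, DM was near the sum of the single effects in both directions: 119 of 179 lay above WT in DM and 60 below. The DM difference from WT passed limma at all 179, the Npm1c difference at 5 and the Flt3-ITD difference at 17. For most of them the sum is therefore made of single effects that did not pass. Haao, of tryptophan breakdown, had 8.27 and 6.06 kb in DM, 2.83 and 4.26 kb in Npm1c, 4.37 and 4.06 kb in Flt3-ITD, and 0.848 and 1.19 kb in WT (-0.20; adjusted p = 0.689). Acoxl, an acyl-CoA oxidase-like gene, had 12.8 and 8.77 kb in DM, 5.07 and 5.99 kb in Npm1c, 6.26 and 4.83 kb in Flt3-ITD, and 2.06 and 1.96 kb in WT (0.14; adjusted p = 0.764). At both, each single mutant was above WT and DM above each single mutant. Vsir, the immune checkpoint protein VISTA, had 0.227 and 0.283 kb in DM, 2.42 and 2.26 kb in Npm1c, 0.918 and 1.02 kb in Flt3-ITD, and 2.96 and 2.12 kb in WT (-0.36; adjusted p = 0.474). Rap1gap2, a RAP1 GTPase activator, had 0.255 and 0 kb in DM, 1.32 and 2.47 kb in Npm1c, 0.317 and 0.784 kb in Flt3-ITD, and 1.99 and 2.08 kb in WT (-0.09; adjusted p = 0.901). Across the 179 the median difference from WT was 1.17 in DM, 0.37 in Npm1c and 0.58 in Flt3-ITD.

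The Flt3 gene itself (chr5:147330741-147400489) had 11.8 and 6.33 kb in DM, 3.84 and 4.63 kb in Npm1c, 5.39 and 4.30 kb in Flt3-ITD, and 0.942 and 0.718 kb in WT. All 6 mutant libraries exceeded WT and both DM libraries exceeded every single-mutant library. Flt3 rose in DM (2.76; limma, adjusted p = 0.000972) and in Flt3-ITD (1.86; adjusted p = 0.0366), its difference in Npm1c did not pass (1.42; adjusted p = 0.0829), and the interaction was -0.53 ± 0.299 (adjusted p = 0.363). Npm1 had 1.51 and 0.824 kb in DM, 1.93 and 1.82 kb in Npm1c, 1.44 and 1.91 kb in Flt3-ITD, and 1.24 and 1.13 kb in WT, with DM overlapping Flt3-ITD and WT, and an interaction of -0.38 (adjusted p = 0.321). Peaks at these loci do not show whether either mutation is present. Irf8, a myeloid and dendritic cell factor chosen after its values were seen, had 4.56 and 2.02 kb in DM, 0.257 and 0.260 kb in Npm1c, 3.74 and 3.36 kb in Flt3-ITD, and 0 kb in both WT libraries. It rose in DM (2.80; limma, adjusted p = 0.000972) and Flt3-ITD (2.88; adjusted p = 0.00969), with an interaction of -0.27 (adjusted p = 0.668).

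Gata2, a stem and progenitor transcription factor, had the interaction of largest size among the 13308 genes and did not pass the threshold. It had 0 kb in both DM libraries, 8.46 and 8.47 kb in Npm1c, 0.686 and 3.91 kb in Flt3-ITD, and 1.51 and 1.26 kb in WT. The interaction was -3.93 ± 0.683 (limma, adjusted p = 0.0557), and the Flt3-ITD libraries lay far apart. Spry2, a brake on RAS signalling, had 0.690 and 0 kb in DM, 3.26 and 4.13 kb in Npm1c, 2.396 and 2.88 kb in Flt3-ITD, and 2.06 and 2.44 kb in WT (-2.11; adjusted p = 0.062). Prdm16, a stem cell and leukaemia gene, had 0 kb in both DM libraries, 2.16 and 2.32 kb in Npm1c, 0.820 and 1.92 kb in Flt3-ITD, and 1.91 and 1.68 kb in WT (-1.58; adjusted p = 0.0799). Mef2c, named after its values were seen, rose in each mutant and had an interaction of -1.11 (adjusted p = 0.0799), with 16.4 and 9.69 kb in DM, 7.60 and 8.33 kb in Npm1c, 11.1 and 9.71 kb in Flt3-ITD, and 1.63 and 1.93 kb in WT.

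**Figure D3:**
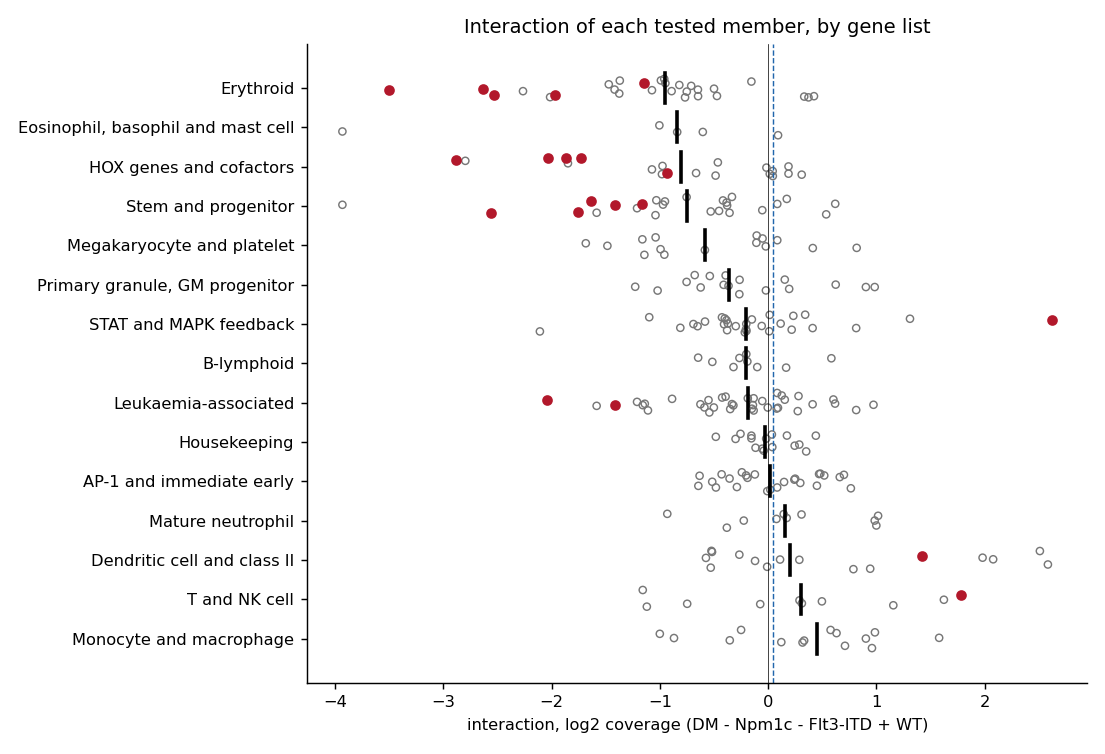
Interaction of every tested member of 15 gene lists (x axis, log2 coverage); open points did not pass, filled red points were called, black bars are list medians and the dashed blue line is the median of all genes, 0.04. The erythroid, HOX, and stem and progenitor lists have 5 called members each, all below 0.

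Stem and progenitor genes had 5 called interactions in 25, all below 0 (Kit, Myb, Tal1, Lmo2 and Angpt1; 0.706% of all genes were called below 0), with a median of -0.75, and 21 of 25 values were below 0. In DM 5 of them rose and 9 fell relative to WT, against 9.25% and 9.17% of all genes. The counts at an unadjusted p given for the other lists stand beside 19.5% of all genes. Megakaryocyte and platelet genes had 0 called of 15 by limma, with 6 at an unadjusted p under 0.05 and a median of -0.58; Gp5, a platelet adhesion receptor subunit, had the largest value (-1.68; adjusted p = 0.191). Mast cell, basophil and eosinophil genes, of which 5 of 15 were tested, had 0 called by limma, 1 at an unadjusted p under 0.05 and a median of -0.84, and 8 of them, Cpa3, Mcpt8, Epx and Prg2 included, were at 0 kb in all 8 libraries. Primary granule genes had 0 called of 17 by limma (3 at an unadjusted p under 0.05; median -0.37), with Mpo, myeloperoxidase, at 3.85 and 1.66 kb in DM, 4.43 and 6.08 kb in Npm1c, 6.17 and 5.41 kb in Flt3-ITD, and 2.99 and 2.98 kb in WT (-1.23; adjusted p = 0.119). STAT and MAPK feedback genes had Socs2 as their only called member of 29 (median -0.21), and leukaemia-associated genes had Trib2 and Lmo2 of 37 (median -0.19). The AP-1 and immediate early list (25 genes, median 0.02), the housekeeping list (16, median -0.03), the B-lymphoid list (9, median -0.20) and the mature neutrophil list (10, median 0.16) had 0 called genes by limma, with 5, 1, 1 and 1 at an unadjusted p under 0.05, and T and NK cell genes had Thy1 of 10 (median 0.30). Without centring every one of these medians was 0.51 lower and those of the monocyte, dendritic, T cell, neutrophil and AP-1 lists turned to -0.06, -0.32, -0.21, -0.36 and -0.50, against -0.47 for all genes.

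**Figure D4:**
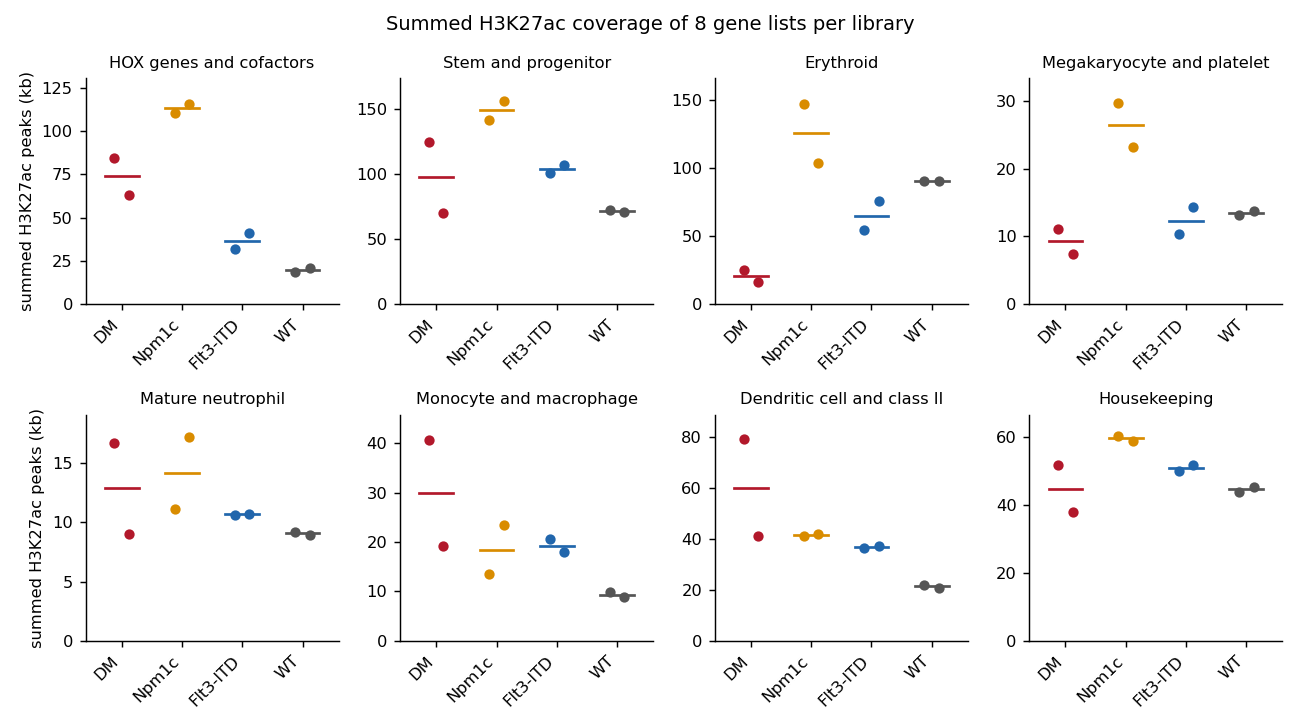
Summed kilobases of H3K27ac peak over the members of 8 lists, uncentred (y axis from 0) for DM, Npm1c, Flt3-ITD and WT from left to right, with 2 libraries as points and their mean as a bar. The erythroid sum is 24.997 and 16.4 kb in DM against 54.2 kb or more in every other library, and in the monocyte and dendritic panels the 2 DM libraries lie far apart.

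The same contrast was read in H3K4me1 and H3K4me3, marks of enhancers and promoters profiled in other libraries of the same genotypes. Peaks of these marks have a fixed width in the deposited lists, so a gene moves in steps and some groups have no spread. For this reason H3K4me3 calls (974 of 16437 genes, 5.93%) are not read here. The H3K4me1 calls have the same limit and are given only as values beside those of H3K27ac. H3K4me1 gave a called interaction at 109 of 17247 genes (0.632%; 0.545% below 0), and of the 43 more than additive losses in H3K27ac 2 were among them, Dach1 and Angpt1, both below 0. No gene of the other non-additive classes was among them. Dach1 had 1 kb of H3K4me1 in both DM libraries, 19 kb in both Npm1c libraries, 9 and 6 kb in Flt3-ITD, and 18 and 22 kb in WT (-2.24 ± 0.272; limma, adjusted p = 0.0286). Its DM and Npm1c pairs thus had no spread in kb. Angpt1 had 23 and 22 kb in DM, 70 and 69 kb in Npm1c, 52 and 54 kb in Flt3-ITD, and 73 and 70 kb in WT (-1.09 ± 0.161; adjusted p = 0.0369). At both genes the Npm1c lists were close to WT, Flt3-ITD was lower and DM lowest. Kit kept H3K4me1 in every genotype, 13 and 15 kb in DM, 21 and 27 kb in Npm1c, 24.4 and 21 kb in Flt3-ITD, and 20 kb in both WT libraries (-0.84; adjusted p = 0.0788), and so did Meis1, at 25 and 28.6 kb in DM and 37.5 to 47 kb in the other 6 (-0.59; adjusted p = 0.167). At Cd83 H3K4me1 was 6 and 5 kb in DM and 4.31 to 6 kb in the other 6 libraries (0.29; adjusted p = 0.687), so this window carried H3K4me1 in every genotype. The called interactions in H3K27ac had a median H3K4me1 interaction of -0.44 for more than additive losses, -0.45 for genes reversed downward, -0.10 for less than additive genes, 0.29 for more than additive gains and 0.59 for genes reversed upward, beside 0.08 over all genes.

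By position, 41080 merged regions were found, and 17100 of them were present in both or in neither library of every genotype. The other 23980 had a genotype whose 2 libraries disagreed, and are not counted. All 4 genotypes held 11620 of the 17100. Npm1c alone held 1680, DM alone 1004, and 1024 were missing in DM alone. A pattern of presence in Npm1c and WT with absence in DM and Flt3-ITD was found in 655, and all 3 mutants without WT in 569. Regions that both single mutants had but neither DM nor WT numbered 141, with a median width of 566 bp. The regions missing in DM alone made up 1.38 Mb and those of DM alone 0.528 Mb.

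**Figure D5:**
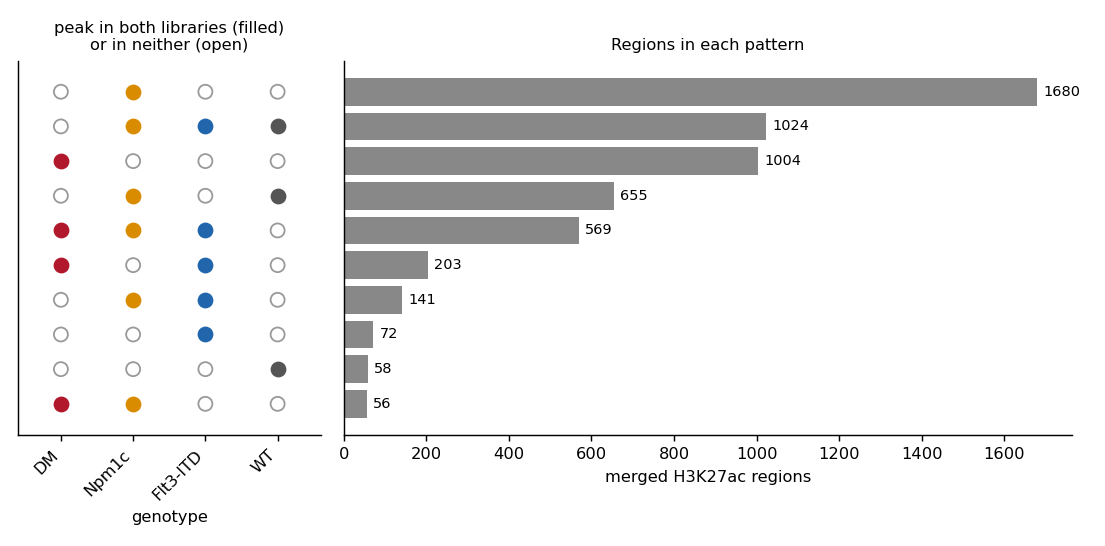
Number of merged H3K27ac regions (bars, from 0) in each of the 10 most frequent patterns other than presence in all 4 genotypes; filled circles mark a peak in both libraries of DM, Npm1c, Flt3-ITD or WT (left to right) and open circles a peak in neither. Npm1c alone (1680), absence in DM alone (1024) and DM alone (1004) are the 3 most frequent.

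The fit was repeated on promoter-like peaks, which overlap an H3K4me3 peak, and on the other, distal peaks. With promoter-like peaks alone 18 genes were above 0 and 67 below it, and 65 of the 112 genes were called again. With distal peaks alone, which make up 1.36 to 2.55 Mb per library, 7 genes were above 0 and 2 below it. Of the 112 genes, 72 could be tested and 3 passed. Rfx2 (-4.35) and H2-Ab1 (3.04) kept their direction, while Hoxa9 passed in the opposite direction (3.03, against -0.94 with all peaks). The distal part of Rfx2 was 0 kb in DM, 4.51 kb in Npm1c, 2.21 kb in Flt3-ITD and 0.515 kb in WT on average, and that of H2-Ab1 2.80 kb in DM and 0 kb elsewhere. H2-Ab1 thus entered the distal fit only through DM, and its distal call is not separate support. At Hoxa9 and Hoxa10 distal peaks gave an interaction above 0, 3.03 and 2.71.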

How the data were processed

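H3K27ac peak lists of lineage-negative mouse marrow cells were used as deposited. The authors deposited peak coordinates (chromosome, start and end) with no score, read count or signal, so the depth is unknown and no counting interval can be given. Per the submitters' processing notes, the tools were Bowtie2 2.1.0, Picard, MACS2 and HOMER with mm10, with no roles or settings given there; the peak lists are labelled per library.

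Covered bp were summed over each of 21887 protein-coding gene spans plus 10 kb on each side, 500 bp were added, and log2 values were centred per library on the median of the 11202 genes covered in all 8. Genes covered in at least 2 libraries (13308) were fitted with limma 3.58.1 in R 4.3.3 (eBayes with trend, 4 groups of 2, residual df 4), with Benjamini-Hochberg adjustment. The method was tested on simulated data, with effects added only in DM and only at genes with long coverage. The simulation does not cover effects at genes with 0 kb outside DM, or libraries of unequal size. Tables and plots were made with Python 3.11.15, NumPy 2.4.6, pandas 2.3.3 and matplotlib 3.10.9. H3K4me1 and H3K4me3 lists were fitted in the same way. The deposited peak lists of neutrophils entered 1 alternative, and the samples of other assays were not used here.

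The named genes were the 6 largest interactions of each non-additive class, the 6 additive genes with the largest DM difference from WT, up to 3 members of each of 17 gene lists, and Npm1 and Flt3; genes of 1 class or list that share at least 50% of the covered length of the smaller window counted as 1, and clone names were left out. Others are said to have been chosen after their values were seen. Some items that the rule or the lists hold are not reported here. The members, lists, classes and tests were chosen with earlier results of these data known. Alternatives changed the centring, the added length, the filter, the window, the peaks used, the replicate block, the variance model and the libraries.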

Additional observations from a re-analysis of the deposited data

Results flagged for a closer look

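The interaction equals the Flt3-ITD effect on the Npm1c background (DM minus Npm1c) minus the Flt3-ITD effect on the WT background (Flt3-ITD minus WT), and 24 named genes are listed here because that difference between backgrounds passed limma at an adjusted p of 0.05. All values are on the log2(covered bp + 500) scale. On the Npm1c background Flt3-ITD went with more acetylated length at Cd83 (3.51, against 0.19 on WT; difference 3.32), Socs2 (3.31 against 0.69; 2.62), Mycl (2.39 against 0.12; 2.27), Tox (2.05; 2.19), Klri2 (2.23 against 0.59; 1.64) and H2-Ab1 (2.13 against 0.71; 1.42). Tox had 0 kb in all Flt3-ITD and WT libraries, so its value on WT of -0.14 is the centring offset alone. At Mycl and Tox the additive expectation lay below zero coverage, which fixed the sign of the difference.

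At the more than additive losses the differences were -3.50 at Car2 (-3.80 on Npm1c against -0.30 on WT), -2.69 at Dach1, -2.69 at Myo1d, -2.63 at Rhag, -2.53 at Aqp1 and -2.22 at Nxpe2. At the reversed genes they were 3.06 at Cttnbp2nl and 2.46 at Ctnnd2 (both with peaks in DM alone, which fixed the sign), -2.77 at Mllt3, -2.70 at Rfx2, -2.56 at Kit (-2.16 on Npm1c against 0.41 on WT) and -2.37 at Ltbp1. At the less than additive genes they were -2.88 at Meis1 (-0.89 on Npm1c against 1.99 on WT), -2.48 at S1pr1, -2.46 at Atf7ip, -2.18 at Lrrc36, 2.14 at Arl11 and -2.08 at Fry. The sign at Arl11 was fixed too, because its additive expectation lay below zero coverage.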

How the results depend on the processing

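With all 8 libraries 18 genes were called above 0 and 94 below, in 50 more than additive, 33 less than additive, 29 reversed and 179 additive genes. With 1 library left out, counts ran from 0 to 173 above 0, 0 to 437 below, 0 to 310 more than additive, 0 to 181 less than additive, 0 to 119 reversed and 42 to 279 additive; the highest counts of called genes came without Npm1c replicate 2. The totals ran from -1.01 to -0.41 for log2 covered Mb, -0.58 to -0.26 for log2 peaks and -59.25 to -4.25 bp for median width, with the ends at the fits without DM replicates 1 and 2. Without centring 901 genes were below 0 (208 more than additive, 541 less, 167 reversed, 56 additive). Adding 100 bp gave 168 below 0 (86 more, 56 less), and adding 2000 bp gave 62 above 0 (76 more, 101 less, 9 reversed, 76 additive). The gene span alone gave 118 additive genes, and equal lists of the widest peaks gave 21 less than additive and 15 reversed. Distal peaks gave 7 above and 2 below (3 more, 1 less, 5 reversed, 11 additive), and there the sign turned at Rhag (0.32), Nxpe2 (0.19), Tal1 (0.017), Lmo2 (1.06), Hoxa9 (3.03) and Hoxa10 (2.71). Adding the neutrophil libraries to the fit as a further group gave 181 above and 335 below (214 more, 192 less, 110 reversed). Scaling before the added length, chosen after seeing the data, gave 6 above and 72 below, with 17 less than additive; among the genes the report names, Nsmce2, Bmp6, Gpd2, Ank2, Nfe2, Adgrg1, Gm30990, Socs2, Mycl, Tox, Klri2, H2-Ab1, Ctnnd2, Lrrc36, Arl11, Angpt1, Thy1 and Hoxa9 lost their call. The causes were not tested.

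Same-numbered deviations correlated between -0.13 and 0.29 over the 6 pairs of groups, with the highest value for DM and Flt3-ITD. No pairing by replicate number common to all groups was seen, and pairing within single pairs of groups was not tested. With the replicate block 6 genes were above 0 and 56 below (29 more, 13 less), and 58 of the 112 were called again. Over the named genes and all alternatives, 1361 values kept their side of the threshold and their direction, 266 lost the threshold, 52 gained it and 6 turned sign. The 1361 include named genes that were not called with all libraries and stayed uncalled, whereas only called genes could lose the threshold. Also among the 1361 are 32 values in kb without log, compared by direction alone. Peak lists carry no depth, so a gene listed at 0 kb had no called peak, which does not show that the mark was absent.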
